A study of Mus musculus with 6 samples.

Results

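Ribosome biogenesis factors are the nucleolar proteins that make, cut, modify and fold ribosomal RNA (rRNA) and put ribosomal proteins onto it. The 44 genes described here were taken by gene symbol from the deposited table, and all 44 were found among its 27458 genes. They were compared between bone marrow macrophages of mice lacking RKIP (RKIP-/-, KO) and of wild-type mice (RKIP+/+, WT), with 3 libraries in each group. RKIP, Raf kinase inhibitor protein, is encoded by Pebp1 and binds Raf kinases. Both groups were primary bone marrow cells treated with macrophage colony-stimulating factor (M-CSF), the cytokine that drives macrophage growth and survival, and the libraries were of oligo(dT)-selected RNA. The study asked how RKIP bears on macrophage differentiation. The allele and the age of the mice, and the number of mice behind each library, are not stated by the labels.

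A ribosome begins as one long rRNA precursor, transcribed in the nucleolus by RNA polymerase I. Small nucleolar ribonucleoproteins (snoRNPs) then guide chemical changes of its bases and sugars: box C/D particles direct ribose methylation and box H/ACA particles direct pseudouridine formation. The small subunit processome and a series of large subunit factors cut and fold the precursor, and many of the genes involved are known targets of the transcription factor Myc in growing cells.

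Promoters are shown first because the E-box CACGTG is the sequence that Myc and its partner Max bind. RefSeq windows on GRCm38.p6, from 250 bases before to 50 bases after the RefSeq start site, were held for 39 of the 44 genes. Wdr12 had 3 windows and Noc2l and Rrp1b had 2 each, and a gene was counted if any of its windows held the motif. CACGTG, which reads the same on both strands, was found in 6 of those 39 genes (15.4%), in Imp4, Nop2, Pes1, Utp20, Utp4 and Wdr43. Among the genes lower in KO it was in 2 of 22 (9.09%), and among the others in 4 of 17 (23.5%). Of the 8545 genes tested for expression with a window, 12.3% held it. Over all 27025 genes with a window the share was 8.09%, and over all 32851 single windows it was 7.15%. The 250 bases before the RefSeq start site are printed for 2 genes with an E-box, of which Nop2 was lower in KO and Imp4 did not pass the test. They are also printed for 2 strongly lower genes without one, Nhp2 and Nop10. Capitals mark the E-box, whose first base is at position -121 in Imp4 and -60 in Nop2, counted from the RefSeq start site. That site can differ from the gene start in the deposited table, as it does for Imp4, Nop2 and Nhp2. The windows lie at chr1:34439579-34439828 (Imp4), chr6:125131633-125131882 (Nop2), chr11:51619523-51619772 (Nhp2) and chr2:112261676-112261925 (Nop10), all on the + strand.
Imp4: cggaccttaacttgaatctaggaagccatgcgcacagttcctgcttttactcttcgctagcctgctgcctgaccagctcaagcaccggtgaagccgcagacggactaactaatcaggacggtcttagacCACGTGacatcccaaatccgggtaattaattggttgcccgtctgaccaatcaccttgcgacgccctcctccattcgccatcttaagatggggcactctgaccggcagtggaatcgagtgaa
Nop2: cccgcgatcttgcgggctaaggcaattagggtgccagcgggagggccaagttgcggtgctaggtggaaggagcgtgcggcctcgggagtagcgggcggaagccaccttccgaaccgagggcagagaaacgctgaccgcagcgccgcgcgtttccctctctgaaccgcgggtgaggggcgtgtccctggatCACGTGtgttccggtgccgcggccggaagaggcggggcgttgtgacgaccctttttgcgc
Nhp2: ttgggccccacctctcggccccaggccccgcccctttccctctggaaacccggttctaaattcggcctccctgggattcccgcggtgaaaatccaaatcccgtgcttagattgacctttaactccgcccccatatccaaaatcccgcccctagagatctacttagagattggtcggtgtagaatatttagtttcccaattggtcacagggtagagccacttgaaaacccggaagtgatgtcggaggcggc
Nop10: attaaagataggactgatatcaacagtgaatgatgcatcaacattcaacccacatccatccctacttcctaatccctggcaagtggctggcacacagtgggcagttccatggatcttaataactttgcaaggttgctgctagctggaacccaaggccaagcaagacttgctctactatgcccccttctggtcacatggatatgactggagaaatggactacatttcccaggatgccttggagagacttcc
A match describes these letters in these windows and says nothing of binding in these cells.

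The table gave FPKM (fragments normalised for gene length and depth) and an estimated count per gene and library. Estimated counts summed to 63607276, 67850358 and 70059042 in KO libraries 1 to 3, against 55255365, 53907941 and 53188659 in WT libraries 1 to 3. Pebp1 was listed at 0 in all KO libraries, against 39.2, 33.2 and 39.0 FPKM in WT libraries. That is at least 413-fold lower in KO, against a floor of 12 counts (about 3 sequenced fragments) per KO library. Macrophage markers were high in both groups: Adgre1 (F4/80) had 376 to 391 FPKM in KO libraries, against 282 to 292 in WT libraries, and Mrc1, the mannose receptor, had 612 to 645 FPKM in KO libraries, against 396 to 427 in WT libraries. Lyz2 had 16555 to 16733 FPKM in KO libraries, against 18656 to 20141 in WT libraries. Of 10 macrophage markers tested, 3 were higher and 4 lower in KO, and with the length offset described below 3 were higher and 2 lower. Summed over 6 B and T cell genes the level was 0.383 to 0.775 FPKM in KO and 0.397 to 0.867 FPKM in WT, and over 6 erythroid and megakaryocyte genes it was 0.320 to 0.669 in KO and 0.185 to 1.16 in WT. Neutrophil markers differed by far more: all 8 tested of 12 listed were lower in KO, and their median on the log2 scale was -5.00. The 12 genes summed to 7.63 to 8.25 FPKM in KO libraries, against 77.3 to 163 FPKM in WT libraries, and Ly6g was at 0 in all KO libraries. Ltf, a granule protein, had 0.186 to 0.194 FPKM in KO libraries, against 6.93 to 6.98 FPKM in WT libraries. Ltf met the filter of a mean of 1 FPKM over the 6 libraries only through WT. A gene that passes in that way cannot come out higher in KO. The calls and the median of the 8 are therefore no test of a fall, while the sums cover all 12 listed genes. Stromal genes were present in both groups, at summed levels of 847 to 967 FPKM in KO and 867 to 968 FPKM in WT, with 1 of 5 tested lower (Pdgfrb). The part of these other cells in the results below was not tested.

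Most of the 44 listed ribosome biogenesis factors were lower in KO macrophages, by small amounts. The list was drawn up with earlier results of these data known. Of the 44 genes, 26 were lower, 1 was higher and 17 did not pass the test (edgeR quasi-likelihood test, Benjamini-Hochberg adjusted p under 0.05 over 11636 tested genes). Among all genes tested 19.4% were lower and 20.3% higher. For a list chosen in that way, this comparison cannot show that ribosome biogenesis genes fell as a class. Of 137 other ribosome biogenesis genes tested, 35 were lower, 2 were higher and 100 did not pass. The median log2 fold change (KO over WT) of the 44 was -0.26, against -0.01 over all genes tested, and 37 of the 44 values were below 0. The 26 lower genes had log2 fold changes of -0.82 to -0.13, a median of -0.34, so that they were 1.09-fold to 1.76-fold lower, and 0 of them reached a 2-fold change. In 24 of the 44 every KO library lay below every WT library in FPKM, and in 2 every KO library lay above. Those arrangements were found in 19.1% and 32.4% of all genes tested. In bulk RNA, fewer cells of a type and less RNA per cell cannot be told apart. No label ties a library to a mouse or culture of its own, and p-values therefore reflect library-to-library spread, possibly technical. All 44 genes passed the filter of a mean of 1 FPKM over the 6 libraries.

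**Figure D1:**
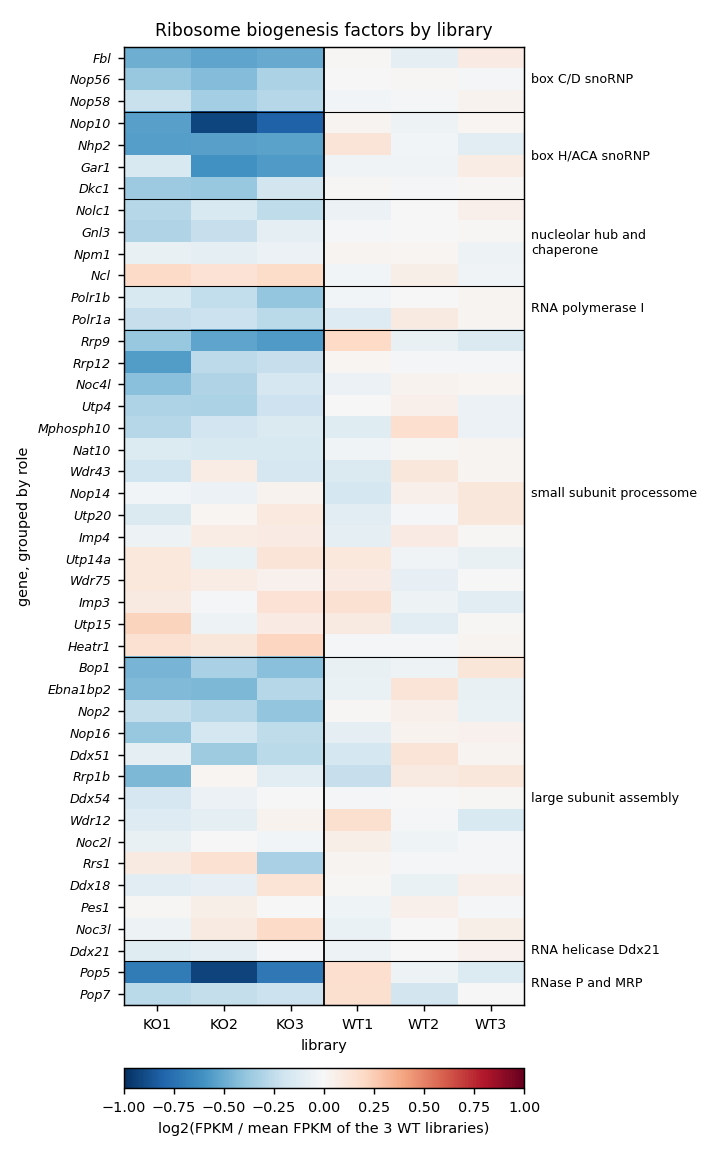
Level of each of the 44 ribosome biogenesis genes in each library, as log2 of its FPKM over the mean FPKM of the 3 WT libraries, with KO libraries on the left and genes grouped by role. Blue is lower and red higher than the WT mean, and the box C/D, box H/ACA and RNA polymerase I genes are blue in all 3 KO libraries, while Ncl is red in all 3.

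In the box C/D snoRNP core all 3 genes fell. Fbl encodes fibrillarin, the methyltransferase of the particle (chr7:28169710-28179269, + strand, in the coordinates of the table, which match GRCm38). It had 7.36, 7.16 and 7.28 FPKM in KO libraries, against 10.4, 9.62 and 10.9 FPKM in WT libraries. The KO libraries lay close together and below all WT libraries, a log2 fold change of -0.56 ± 0.06 (approximate SE, edgeR adjusted p = 5.04e-05). Nop56, which with Nop58 forms the scaffold that holds fibrillarin on the guide RNA, had 6.09, 5.87 and 6.35 FPKM in KO libraries, against 7.93, 7.97 and 7.88 FPKM in WT libraries. The groups did not overlap, and the log2 fold change was -0.43 ± 0.06 (edgeR adjusted p = 0.000239). Nop58 had 2.38, 2.19 and 2.28 FPKM in KO libraries, against 2.73, 2.75 and 2.85 FPKM in WT libraries. It too was lower in every KO library, with a log2 fold change of -0.34 ± 0.07 (edgeR adjusted p = 0.00181). The order of the 3 by size depended on the length offset: with an offset for transcript length and GC content Nop58 was at -0.69 and Fbl and Nop56 both at -0.31, and with one for coding length and GC content Fbl was at -0.40, Nop56 at -0.43 and Nop58 at -0.51. All 3 passed in both (edgeR adjusted p up to 0.00203). The ratio of Nop58 to Fbl, in FPKM without an offset, was 0.323, 0.306 and 0.313 in KO libraries, against 0.262, 0.286 and 0.261 in WT libraries. These ratios did not overlap, and the two-sided exact permutation p was 0.1, the smallest that 3 libraries against 3 allow. Their direction depended on the offset too, since with either offset Nop58 fell more than Fbl. The ratio of Nop56 to Fbl overlapped between groups (0.819 to 0.872 in KO, 0.723 to 0.829 in WT, exact permutation p = 0.3). Of these genes Nop56 is matched by 6 processed pseudogenes, which together had 0.164 to 0.736 FPKM in KO and 0.603 to 1.74 FPKM in WT, and Fbl by 1, at 0.232 to 0.309 FPKM in KO and 0.201 to 0.312 in WT. Reads shared with such copies make these levels uncertain. Nop56 and Nop58 are also host genes, with 5 and 4 annotated snoRNA genes inside them, whose RNAs carry no poly(A) tail and are not measured here.

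All 4 box H/ACA snoRNP genes fell as well, though the sizes moved with the offsets. Nhp2, an RNA-binding core protein (chr11:51619735-51623714, + strand), had 17.7, 17.8 and 17.9 FPKM in KO libraries, against 28.3, 25.5 and 24.0 FPKM in WT libraries. The KO values were nearly equal and all below WT, a log2 fold change of -0.60 ± 0.07 (edgeR adjusted p = 8.06e-05). It was -0.30 with the offset for transcript length and GC content and -0.29 with coding length (edgeR adjusted p = 0.00447 and 0.00422). Nop10 encodes the smallest protein of the particle, a link between Nhp2 and the enzyme (chr2:112261926-112263269, + strand). It had 8.67, 6.69 and 7.23 FPKM in KO libraries, against 12.9, 12.2 and 12.8 FPKM in WT libraries. Its fall to 7.53 ± 1.02 FPKM in KO, against 12.6 ± 0.357 FPKM in WT (SD, n = 3 each), was a log2 fold change of -0.80 ± 0.11 (edgeR adjusted p = 0.000218), and -0.56 and -0.47 with the same offsets. Dkc1 encodes dyskerin, the pseudouridine synthase, which also sits in telomerase. Its levels were 2.38, 2.36 and 2.69 FPKM in KO libraries, against 3.08, 3.03 and 3.08 FPKM in WT libraries, with no overlap and a log2 fold change of -0.36 ± 0.09 (edgeR adjusted p = 0.00774). Gar1 averaged 2.46 ± 0.444 FPKM in KO and 3.29 ± 0.144 FPKM in WT (SD, n = 3 each), a log2 fold change of -0.47 ± 0.16 (edgeR adjusted p = 0.0324). KO library 1, at 2.97 FPKM, stood above the 2.17 and 2.23 FPKM of the other KO libraries and just under the lowest WT value of 3.21 FPKM. The call of Gar1 was lost when any library other than KO library 1 was left out (edgeR adjusted p up to 0.112), and also with an offset for length and GC content (edgeR adjusted p = 0.242). The ratios of Gar1 to Dkc1 and of Nop10 to Nhp2 overlapped between groups, with means of 1 in KO and 1.08 in WT and of 0.423 in KO and 0.490 in WT (exact permutation p = 0.6 and 0.3).

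**Figure D2:**
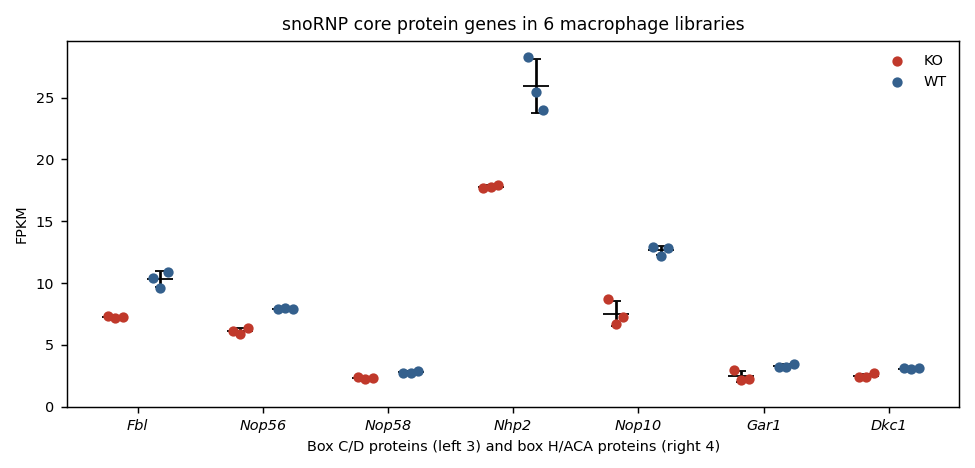
FPKM of the 3 box C/D and 4 box H/ACA snoRNP protein genes in the 3 KO libraries (red, left) and 3 WT libraries (blue, right), with bars for the mean and SD. For each gene all KO points lie below all WT points, and the widest gap is that of Nhp2, at 17.7 to 17.9 FPKM in KO and 24.0 to 28.3 FPKM in WT.

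The nucleolar hub proteins split. Ncl and Npm1 encode nucleolin and nucleophosmin, abundant multifunctional nucleolar proteins, and they had the highest levels per length of the 44. Ncl (chr1:86344719-86359400, - strand) had 42.6, 41.3 and 42.3 FPKM in KO libraries, against 36.6, 38.9 and 36.5 FPKM in WT libraries. It was the only one of the 44 genes past the test in the upward direction, at a log2 fold change of 0.12 ± 0.04 (edgeR adjusted p = 0.0448). That direction depended on the length offset: with an offset for transcript length and GC content Ncl was lower in KO (log2 fold change -0.16, edgeR adjusted p = 0.00853), and with one for coding length and GC content it did not pass (-0.04, edgeR adjusted p = 0.398). The call was also lost without KO library 1 or 3 or without WT library 1 or 3 (edgeR adjusted p up to 0.163). Npm1 (chr11:33152287-33163206, - strand) had 106, 105 and 107 FPKM in KO libraries, against 114, 113 and 108 FPKM in WT libraries. The groups came within about 1 FPKM of each other, and the log2 fold change was -0.13 ± 0.04 (edgeR adjusted p = 0.0221). Without KO library 2, WT library 1 or WT library 2 it did not pass (edgeR adjusted p up to 0.0742), nor with the offset for transcript length and GC content (edgeR adjusted p = 0.146). Npm1 also did not pass under limma on log2(FPKM + 1) (limma adjusted p = 0.201), but passed with the offset for coding length (-0.17, edgeR adjusted p = 0.00183). Processed pseudogenes of Npm1, 7 in number, summed to 21.6, 23.5 and 23.1 FPKM in KO and 30.1, 24.5 and 28.1 FPKM in WT, so the Npm1 level is uncertain.

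The other 2 hub genes fell. Nolc1, a chaperone of snoRNPs also known as Nopp140, had 8.48, 9.32 and 8.67 FPKM in KO libraries, against 9.96, 10.4 and 10.7 FPKM in WT libraries. Its groups did not overlap (log2 fold change -0.29 ± 0.06, edgeR adjusted p = 0.00255). Gnl3, or nucleostemin, a nucleolar GTP-binding protein of proliferating cells, had 2.93, 3.08 and 3.38 FPKM in KO libraries, against 3.59, 3.6 and 3.64 FPKM in WT libraries. All KO values were below the tight WT values, a log2 fold change of -0.26 ± 0.07 (edgeR adjusted p = 0.0127), and without WT library 3 the adjusted p was 0.0507.

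Both subunits of the catalytic core of RNA polymerase I fell. Polr1a, the largest subunit (chr6:71909053-71984935, + strand), had 2.96, 2.98 and 2.88 FPKM in KO libraries, against 3.17, 3.69 and 3.53 FPKM in WT libraries. The log2 fold change was -0.29 ± 0.07 (edgeR adjusted p = 0.0043), and -0.46 with the offset for transcript length and GC content. Polr1b, the other core subunit, had 2.14, 2.01 and 1.82 FPKM in KO libraries, against 2.34, 2.38 and 2.43 FPKM in WT libraries, a log2 fold change of -0.31 ± 0.09 (edgeR adjusted p = 0.0176). For neither gene did the groups overlap, and the call of Polr1b was lost without KO library 3 or WT library 3 (edgeR adjusted p up to 0.0602). Their ratio overlapped between groups, with means of 1.48 in KO and 1.45 in WT (exact permutation p = 0.7). Of 14 further tested genes of the polymerase and its factors 4 were lower and 0 higher. Polr1e, a polymerase-associated factor, had 1.26, 1.22 and 1.20 FPKM in KO libraries, against 1.40, 1.77 and 1.91 FPKM in WT libraries (log2 fold change -0.52 ± 0.14, edgeR adjusted p = 0.0132), and without WT library 3 its adjusted p was 0.0599. Mybbp1a, a nucleolar repressor protein, and Polr1c, a subunit shared with RNA polymerase III, were lower, at log2 fold changes of -0.17 and -0.27 (adjusted p = 0.0200 and 0.0247 by edgeR). Mybbp1a lost the call without KO library 1 or 2 or WT library 2 or 3 (edgeR adjusted p up to 0.116), and Polr1c without KO library 2 or 3 or WT library 1 or 3 (up to 0.126). Polr1c was at -0.04 with the offset for transcript length and GC content (edgeR adjusted p = 0.756), and at -0.13 with coding length (edgeR adjusted p = 0.257). Ubtf, which opens the rRNA genes to the polymerase, had a log2 fold change of 0.03 ± 0.05 (edgeR adjusted p = 0.623), and Rrn3, which recruits the polymerase, one of 0.03 ± 0.06 (edgeR adjusted p = 0.723). The rRNA rows of the table took 2.09%, 1.14% and 1.5% of counts in KO libraries, against 0.837%, 0.773% and 1.22% in WT libraries. These shares overlapped (1.58 ± 0.476% in KO, 0.943 ± 0.242% in WT, SD, n = 3 each, two-sided exact permutation p = 0.2, smallest possible 0.1), and after oligo(dT) selection they do not measure rRNA synthesis.

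The small subunit processome was divided: 6 of 15 genes fell, 0 rose and 9 did not pass the test. Utp4, known as cirhin, belongs to the early subcomplex that binds the start of the precursor (chr8:106893636-106923088, + strand). It had 5.36, 5.34 and 5.74 FPKM in KO libraries, against 6.66, 6.88 and 6.39 FPKM in WT libraries, a log2 fold change of -0.33 ± 0.07 (edgeR adjusted p = 0.00254). Rrp9, a protein of the U3 snoRNP on which the processome is built, had 2.82, 2.55 and 2.48 FPKM in KO libraries, against 4.20, 3.49 and 3.31 FPKM in WT libraries. WT library 1 was the highest and all KO values were below WT, and the log2 fold change was -0.54 ± 0.12 (edgeR adjusted p = 0.00394). Noc4l, a partner of Nop14, had 4.76, 5.16 and 5.64 FPKM in KO libraries, against 6.08, 6.52 and 6.44 FPKM in WT libraries (log2 fold change -0.35 ± 0.08, edgeR adjusted p = 0.00606). Its adjusted p was 0.0623 with the offset for transcript length and GC content. Rrp12, a HEAT-repeat protein of precursor particles, was lower by a log2 fold change of -0.40 ± 0.10 (edgeR adjusted p = 0.00923).

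Mphosph10 and Nat10 were the other 2 lower genes of the processome. Mphosph10, the centre of the complex with Imp3 and Imp4, averaged 4.99 ± 0.244 FPKM in KO and 5.77 ± 0.614 FPKM in WT (SD, n = 3 each, edgeR adjusted p = 0.0272). Nat10, the enzyme that acetylates cytidines of rRNA, averaged 2.42 ± 0.0154 FPKM in KO and 2.68 ± 0.0555 FPKM in WT (edgeR adjusted p = 0.0318). The call of Mphosph10 was lost without KO library 1, KO library 2 or WT library 2 (edgeR adjusted p up to 0.138), with log2 fold changes of -0.32 to -0.17 as each library was left out. That of Nat10 was lost without any library other than WT library 1 (edgeR adjusted p up to 0.112), while its log2 fold change stayed at -0.22 to -0.19. Mphosph10 was at -0.43 with the offset for coding length (edgeR adjusted p = 0.00186). Under limma on log2(FPKM + 1) neither Mphosph10 nor Nat10 passed (limma adjusted p = 0.103 and 0.0754).

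The other processome genes did not pass the test. Imp3, the member with the highest FPKM of this role, had 12.9, 12 and 13.4 FPKM in KO libraries, against 13.5, 11.7 and 11.2 FPKM in WT libraries (log2 fold change 0.02 ± 0.10, edgeR adjusted p = 0.893). With the offset for transcript length and GC content this short gene was higher in KO (log2 fold change 0.34, edgeR adjusted p = 0.0146). Imp4, Utp14a, Utp15, Utp20, Wdr75 and Nop14 had log2 fold changes of -0.07 to 0.04 with overlapping FPKM, and Wdr43 had one of -0.15 ± 0.09 (edgeR adjusted p = 0.198). Heatr1, a large scaffold protein of the same early subcomplex as Utp4, had 7.87, 7.68 and 8.22 FPKM in KO libraries, against 7.02, 7.02 and 7.25 FPKM in WT libraries. Its KO values were all above WT, but the log2 fold change was 0.10 ± 0.05 (edgeR adjusted p = 0.0924, and 0.0452 by limma on log2(FPKM + 1)). With the offset for transcript length and GC content its log2 fold change was -0.05 (edgeR adjusted p = 0.333), and Utp20 then passed the test as lower (-0.27, edgeR adjusted p = 0.00522).

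Large subunit assembly genes were divided in the same way, with 6 of 13 lower, 0 higher and 7 not past the test. Bop1, Pes1 and Wdr12 encode the 3 proteins of the PeBoW complex, which acts on the large subunit precursor, and only Bop1 passed. Bop1 (chr15:76452989-76477277, - strand) had 9.63, 10.6 and 9.94 FPKM in KO libraries, against 12.6, 12.8 and 14.4 FPKM in WT libraries. The groups were well apart, with a log2 fold change of -0.45 ± 0.07 (edgeR adjusted p = 0.000391). Pes1, the most abundant per length of the large subunit genes, had 31.2, 32.2 and 31.0 FPKM in KO libraries, against 30.0, 32.0 and 30.7 FPKM in WT libraries, and the groups overlapped (log2 fold change -0.03 ± 0.04, edgeR adjusted p = 0.634). The ratio of Bop1 to Pes1 was 0.308, 0.331 and 0.321 in KO libraries, against 0.420, 0.400 and 0.469 in WT libraries. The ratios did not overlap, and the two-sided exact permutation p of 0.1 is the smallest the design allows. It is 1 of 6 such ratios computed. Wdr12, at 1.22 ± 0.0711 FPKM in KO and 1.27 ± 0.142 FPKM in WT (SD, n = 3 each), did not pass (edgeR adjusted p = 0.355), but was lower with the offset for transcript length and GC content (log2 fold change -0.50, edgeR adjusted p = 0.00174).

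Ebna1bp2, the counterpart of yeast Ebp2 in large subunit assembly (chr4:118620799-118627776, + strand), had 4.72, 4.70 and 5.27 FPKM in KO libraries, against 6.15, 7.01 and 6.12 FPKM in WT libraries. It fell without overlap, by a log2 fold change of -0.45 ± 0.08 (edgeR adjusted p = 0.00107). Nop2, a cytosine methyltransferase of large subunit rRNA and a long-known proliferation antigen (chr6:125131909-125144753, + strand), had 9.35, 9.02 and 8.37 FPKM in KO libraries, against 11.1, 11.4 and 10.5 FPKM in WT libraries. The log2 fold change of Nop2, whose promoter with its E-box is printed above, was -0.36 ± 0.07 (edgeR adjusted p = 0.00183). Nop16, a nucleolar protein of the large subunit path, averaged 7.57 ± 0.536 FPKM in KO and 9.11 ± 0.458 FPKM in WT (SD, n = 3 each, log2 fold change -0.32 ± 0.08, edgeR adjusted p = 0.00795). It did not pass with the offsets for transcript length and coding length, at -0.18 and -0.07 (edgeR adjusted p = 0.115 and 0.568).

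Of the RNA helicases, Ddx51 and Ddx54 of the large subunit path passed with FPKM that overlapped between groups. Ddx51 had 2.28 to 2.73 FPKM in KO and 2.59 to 3.19 FPKM in WT (log2 fold change -0.29 ± 0.10, edgeR adjusted p = 0.0422). Ddx54 had 10.9 to 12.3 FPKM in KO and 12.1 to 12.4 FPKM in WT (log2 fold change -0.13 ± 0.05, edgeR adjusted p = 0.0426). Ddx21, a helicase that binds rRNA precursors and snoRNAs, had 15.8, 16 and 17 FPKM in KO libraries, against 16.6, 17.2 and 17.7 FPKM in WT libraries, which also overlapped (log2 fold change -0.13 ± 0.04, edgeR adjusted p = 0.0326). With either offset Ddx21 was at -0.23. Ddx54 did not pass with the offset for transcript length or coding length (edgeR adjusted p = 0.0629 and 0.106), nor under DESeq2 (DESeq2 adjusted p = 0.0509). All 3 calls were lost under limma on log2(FPKM + 1), and all 3 without KO library 2, WT library 2 or WT library 3. Ddx51 was lost without KO library 3 too, Ddx21 without KO library 1, and Ddx54 without KO library 1 or WT library 1. The highest edgeR adjusted p without a library was 0.161 for Ddx51, 0.178 for Ddx54 and 0.144 for Ddx21. The remaining large subunit genes, Noc2l, Noc3l, Rrs1, Rrp1b and Ddx18, did not pass and had log2 fold changes of -0.22 to 0.02. Within them KO library 3 had 6.55 FPKM of Rrs1, below the 8.70 and 9.11 FPKM of the other KO libraries and the 8.08 to 8.36 FPKM of WT libraries.

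Pop5 had the largest log2 fold change of the 44 in size under edgeR without an offset, under DESeq2 and with the coding length offset, but not under limma or with the transcript length offset. With Pop7 it is a protein subunit shared by RNase P, which trims transfer RNA, and RNase MRP, which cuts the rRNA precursor. Pop5 (chr5:115235836-115240991, + strand) had 1.97, 1.68 and 1.95 FPKM in KO libraries, against 3.58, 3.09 and 2.91 FPKM in WT libraries. The groups were far apart for so low a level, with 280 to 335 estimated counts in KO and 402 to 512 in WT, and the log2 fold change was -0.82 ± 0.14 (edgeR adjusted p = 0.00071). It was -0.53 and -0.54 with the offsets for transcript and coding length. Under limma on log2(FPKM + 1) Pop5 was at -0.55 and Nop10 at -0.68, and with the transcript length offset Nop58 was at -0.69 and Nop10 at -0.56. The added 1 makes log2 changes smaller at levels as low as that of Pop5. Pop7 had 5.44, 5.56 and 5.65 FPKM in KO libraries, against 7.35, 5.78 and 6.58 FPKM in WT libraries. Its groups did not overlap, but WT values were spread and the log2 fold change was -0.30 ± 0.13 (edgeR adjusted p = 0.0806). With the offsets for transcript length and for coding length, each with GC content, Pop7 stood at 0.01 and 0.02 (edgeR adjusted p = 0.982 and 0.926). Of 7 further tested RNase P and MRP genes 2 were lower. The large scaffold subunit Pop1 had 1.57, 2.16 and 2.02 FPKM in KO libraries, against 2.94, 2.87 and 2.41 FPKM in WT libraries (log2 fold change -0.57 ± 0.13, edgeR adjusted p = 0.00491). Rpp38, another shared subunit, had 1.31, 1.54 and 1.32 FPKM in KO libraries, against 2.80, 1.63 and 2.19 FPKM in WT libraries (log2 fold change -0.73 ± 0.23, edgeR adjusted p = 0.0237). Its call was lost without KO library 1 or 3 or WT library 1 or 3 (edgeR adjusted p up to 0.112), and with the offset for transcript length and GC content (-0.46, edgeR adjusted p = 0.142).

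Pop5 lies 2.04 Mb from Pebp1 on chromosome 5, and 3 more of the 44 genes lie within 10 Mb of it: Ddx54 at 3.33 Mb, Ddx51 at 6.62 Mb and Noc4l at 6.63 Mb. All 4 were lower, as were 22 of the 40 genes farther away or on other chromosomes, and the median log2 fold change was -0.32 for the 4 and -0.24 for the 40. Pop7 lies 20.2 Mb away and Nop14 82.6 Mb away, and neither passed the test. The part of nearness to Pebp1 in these 4 falls was not tested. The 44 genes lie on 17 chromosomes in all.

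**Figure D3:**
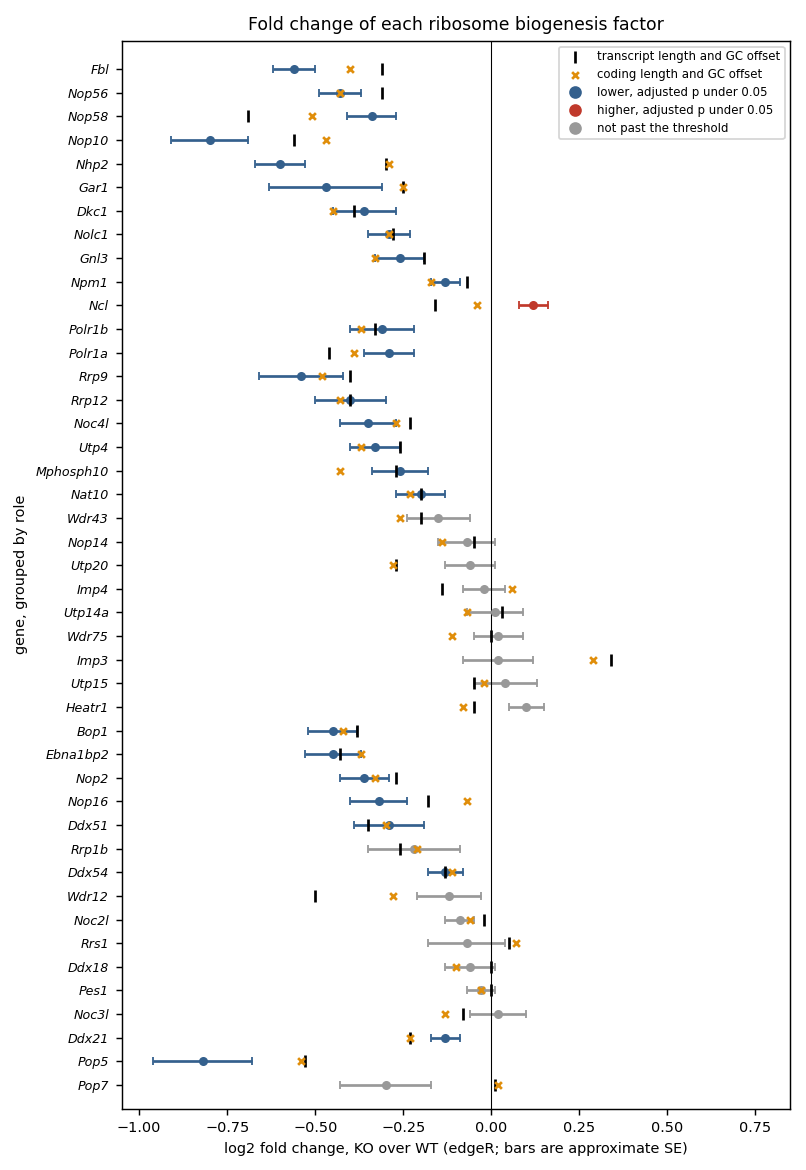
Log2 fold change (KO over WT, edgeR) of each of the 44 genes, with bars of 1 approximate SE and genes grouped by role. Blue points passed the test as lower in KO, the red point (Ncl) as higher and grey points did not pass. Black marks and orange crosses give the values with the 2 length and GC offsets, which put Ncl at -0.16 and -0.04.

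Signed log2 fold changes (KO over WT) rose with gene length in these libraries, so that shorter genes tended towards lower values in KO. The 44 genes were therefore also read with offsets for length. Over 11627 tested genes with a length the correlation of log2 fold change with log2 transcript length was r = 0.36 (Spearman rho = 0.51), and over the 44 genes it was r = 0.50 (rho = 0.46). These are descriptions across genes, which share libraries and are not independent replicates. Transcripts of the 44 ran from 924 to 10012 bases, with a median of 2808 bases, against 2904 for all genes tested. With the offset for transcript length and GC content 24 of the 44 were lower and 1 (Imp3) higher, against backgrounds of 14.2% lower and 15.7% higher, and 21 of the 26 lower genes were shared with the fit without it. With coding length in its place 26 were lower and 1 higher, with backgrounds of 14.7% and 19.9% and 23 of the 26 shared. limma on log2(FPKM + 1) called 20 lower and 2 higher, with backgrounds of 13.7% and 23.7%, and DESeq2 called 25 lower and 1 higher, with backgrounds of 20.1% and 21.8%. The genes lower under all of these, and whichever single library was left out, numbered 15: Fbl, Nop56, Nop58, Dkc1, Nhp2, Nop10, Nolc1, Polr1a, Utp4, Rrp9, Rrp12, Bop1, Nop2, Ebna1bp2 and Pop5.

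In level the 44 genes ran from a mean of 1.24 FPKM (Wdr12) to 109 FPKM (Npm1) over the 6 libraries, with a median of 6.01 FPKM, close to the 6.39 FPKM of all genes tested. The order from the top was Npm1, Ncl, Pes1, Nhp2, Ddx21 and Noc2l. At the bottom stood Polr1b, Rrp1b and Wdr12. FPKM depends on the length that the authors' program used, which by the ratio of count to FPKM was 10099 bases for Ncl and 4177 bases for Fbl, longer than their coding lengths of 2121 and 981 bases, so the order between genes is approximate. The correlation of log2 fold change with log2 mean FPKM across the 44 was r = 0.20 (rho = 0.21). Together the 44 genes took 0.193%, 0.192% and 0.195% of all counts in KO libraries, against 0.211%, 0.216% and 0.213% in WT libraries, and without Npm1 and Ncl they summed to 287 to 294 FPKM in KO libraries, against 329 FPKM in each WT library. Of the 44, 7 overlap an expressed gene on the other strand by 5 to 987 bases (Bop1, Dkc1, Gnl3, Heatr1, Nhp2, Nop56 and Rrp9). The libraries were made with dUTP marking of the second strand, but the use of strand in counting is not stated by the labels.

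Of 149 listed genes outside the 44, 142 were in the table and 137 were tested, of which 35 were lower and 2 higher, and the median over the 137 was -0.11 (log2 fold change). Without WT library 3 the count was 16 lower, without WT library 1 it was 19, without KO library 3 it was 22 and without KO library 1 it was 23. Over all 11636 genes tested 2253 (19.4%) were lower, and in those same 4 fits 1794, 1876, 1877 and 1898 were. By listed role, 11 of 45 further small subunit genes were lower, and 14 of 47 large subunit genes. The place of Bccip among those 11 is doubtful. Among snoRNP proteins and their assembly factors 2 of 10 were lower and 1 higher, and among exosome and rRNA trimming genes 2 of 14 were lower and 1 higher.

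Ruvbl2, an ATPase of the machinery that assembles snoRNPs, had 7.97, 8.64 and 7.72 FPKM in KO libraries, against 10.3, 9.74 and 11.4 FPKM in WT libraries (log2 fold change -0.42 ± 0.08, edgeR adjusted p = 0.00111). Naf1, which loads dyskerin onto new box H/ACA RNAs before Gar1 takes its place, went the other way. It had 3.28, 3.22 and 2.91 FPKM in KO libraries, against 2.31, 2.61 and 2.13 FPKM in WT libraries, a log2 fold change of 0.36 ± 0.12 (edgeR adjusted p = 0.0259). That call was lost without KO library 1 or 2 or WT library 1 or 3 (edgeR adjusted p up to 0.0875). Xrn2, an exonuclease that trims rRNA and ends transcription, had 41.2, 42.5 and 42.0 FPKM in KO libraries, against 35.7, 36.7 and 34.2 FPKM in WT libraries (log2 fold change 0.18 ± 0.04, edgeR adjusted p = 0.00444). With the offset for coding length Xrn2 did not pass (edgeR adjusted p = 0.873). Snu13, a box C/D protein that binds the guide RNA directly, was barely past the test (log2 fold change -0.16, edgeR adjusted p = 0.0465), and it lost the call without any library other than KO library 2 (edgeR adjusted p up to 0.147). It did not pass with the offset for transcript length (-0.10, edgeR adjusted p = 0.198) or coding length (0.09, edgeR adjusted p = 0.275). The exosome subunits Exosc1 and Exosc2 were lower, at -0.31 and -0.36 on the log2 scale (adjusted p = 0.0322 and 0.0326 by edgeR). Exosc1 lost the call without KO library 1 or any WT library (edgeR adjusted p up to 0.118), and Exosc2 without KO library 3 or WT library 1 or 3 (up to 0.109). Neither passed with the offset for transcript length and GC content (edgeR adjusted p = 0.0623 and 0.214) or for coding length (0.24 and 0.155).

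In the list of small subunit factors the smallest p-values were those of Bccip, Pno1 and Tbl3. Their log2 fold changes were -0.29, -0.29 and -0.30 (adjusted p = 0.00667, 0.00778 and 0.00918 by edgeR). The place of Bccip in that list is doubtful. Pno1 is an assembly factor of the late small subunit precursor, and Tbl3 belongs to the processome. Among large subunit factors they were those of Eif6, Lyar and Ftsj3, whose values were -0.29, -0.46 and -0.21 (edgeR adjusted p = 0.00318, 0.00507 and 0.00538). Eif6 keeps the new large subunit from joining the small one, and Ftsj3 is an rRNA methyltransferase. With the offset for transcript length and GC content Bccip, Eif6 and Lyar did not pass (edgeR adjusted p = 0.217, 0.146 and 0.0526).

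**Figure D4:**
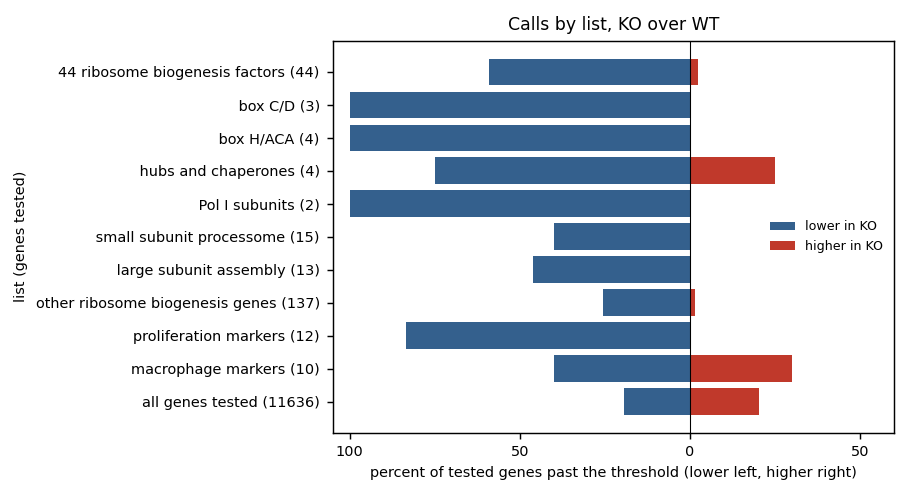
Percent of tested genes past the edgeR test, lower in KO to the left and higher in KO to the right of 0, for the 44 genes, their roles, other ribosome biogenesis genes, proliferation and macrophage markers and all genes tested (number tested in parentheses). The snoRNP and RNA polymerase I groups, which hold only genes of the 44, reach 100% lower, against 19.4% of all 11636 genes.

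Myc itself was lower in KO. Myc had 9.41, 9.92 and 8.93 FPKM in KO libraries, against 11.9, 11.7 and 11.0 FPKM in WT libraries. The groups did not overlap, and the log2 fold change was -0.34 ± 0.07 (edgeR adjusted p = 0.00179). Mxd4, which competes with Myc for Max, was higher: it had 25.5, 24.6 and 24.6 FPKM in KO libraries, against 19.2, 18.3 and 18.8 FPKM in WT libraries (log2 fold change 0.35 ± 0.04, edgeR adjusted p = 8.89e-05). In the list of 14 Myc network genes 11 were tested, of which 4 were higher (Mxd4, Mga, Mlxip and Mnt) and 2 lower (Myc and Bcl6). Mnt lost its call without KO library 1 or 2 or WT library 1 or 2 (edgeR adjusted p up to 0.146), and Bcl6 without WT library 3 (0.0523). Mycn was below the filter, with 0 counts in every KO library, against 97, 87 and 76 counts in WT libraries, and was not tested. Mga had a log2 fold change of 0.38 (edgeR adjusted p = 0.000161), which went to -0.01 with the offset for transcript length and GC content (edgeR adjusted p = 0.911). Max had one of -0.02 (edgeR adjusted p = 0.828).

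Of 12 proliferation markers 10 were lower in KO, against 19.4% of all genes tested, and the median over the 12 was -0.48 (log2 fold change). The 12 summed to 113 to 127 FPKM in KO libraries, against 142 to 148 FPKM in WT libraries. Mcm5, a subunit of the replicative helicase, had 8.03, 8.14 and 8.31 FPKM in KO libraries, against 11.0, 12.5 and 11.5 FPKM in WT libraries (log2 fold change -0.57 ± 0.06, edgeR adjusted p = 3.1e-05). Mcm3 and Rrm2, a subunit of ribonucleotide reductase, fell too, at log2 fold changes of -0.52 ± 0.06 and -0.61 ± 0.08 (adjusted p = 3.77e-05 and 0.000122 by edgeR). Mki67 and Ccna2 did not pass, at -0.16 and -0.17 on the log2 scale (adjusted p = 0.0917 and 0.0988 by edgeR). Mki67 was lower with both offsets, at -0.40 with transcript length and -0.41 with coding length (edgeR adjusted p = 0.000215 and 0.000106). Malat1, a long RNA kept in the nucleus, was higher in KO, at 166, 134 and 165 FPKM in KO libraries, against 81.2, 66.1 and 86.7 FPKM in WT libraries (log2 fold change 0.94 ± 0.10, edgeR adjusted p = 3.56e-05). Neat1, another nuclear RNA, did not pass (log2 fold change 0.09, edgeR adjusted p = 0.0827), and with the offset for transcript length and GC content it was lower (-0.24, edgeR adjusted p = 0.0011). The part of the proliferating cells, of Myc and of the nuclear RNA share in the ribosome biogenesis values was not tested.

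**Figure D5:**
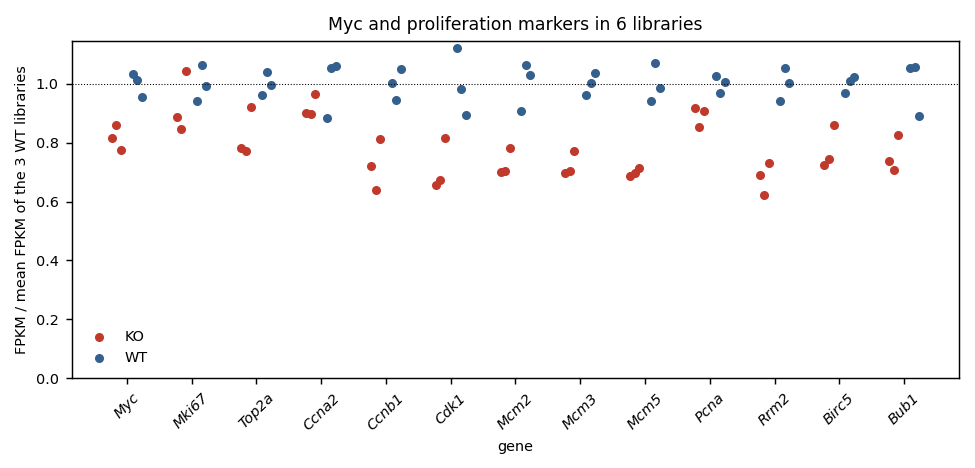
FPKM of Myc and 12 proliferation markers in each library, divided by the mean FPKM of the 3 WT libraries (dotted line at 1), with KO in red and WT in blue. For Myc and 10 of the markers all KO points lie below all WT points, while Mki67 and Ccna2 overlap.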

How the data were processed

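Per the file headers, the deposited table holds an FPKM and an estimated count per gene and library, both made by the authors, with no column left out. The estimated counts were deposited as whole numbers. The submitters' processing notes name HISAT2 2.0.4, StringTie 1.3.4d and cutadapt 1.9. No genome build is named in the sources used here; 27382 of 27458 gene IDs matched GENCODE M21 (GRCm38), 24732 with identical coordinates, and coordinates are the table's. Among low counts 4 was found 5769 times, against 3204 for 3 and 2041 for 5, so about 4 counts stood for 1 fragment. Libraries of one group differed beyond counting noise (chi-square over its degrees of freedom 3.64 to 7.42) and correlated at 0.989 to 0.992 within groups and 0.972 to 0.976 between them.

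KO was compared with WT by edgeR 4.0.16 in R 4.3.3 (quasi-likelihood test, two-sided, TMM scaling) over 11636 genes whose mean reached 1 FPKM. Benjamini-Hochberg adjustment was used, with a threshold of 0.05. The approximate SE was obtained by dividing the size of the log2 fold change by the square root of F. Fold changes use edgeR's scaling, not FPKM ratios. Offsets were each library's loess trend (span 0.3) on GC content and on the length of the longest coding transcript or, added after the data were seen, its coding part. Alternatives were limma 3.58.1 on log2 FPKM, DESeq2 1.42.0, other scalings and filters, the replicate number as a block, and leaving out each library. Pseudogenes were matched by minimap2 2.31, covered over 50% or more of their length. Promoters are from RefSeq, and proteins were not analysed here. Fits were tested on simulated data; Python 3.11.15 and scipy 1.17.1 were used.

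The 44 genes and the other lists were chosen with earlier results of these data known. Values per library are given for Pebp1, for the 8 genes with the smallest p past the test in each direction, and for up to 3 genes with the smallest p and the most abundant gene of each role. From other lists the 3 smallest p, Myc, Ubtf and Rrn3 are named, and genes beyond that were named after their values were seen.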

Additional observations from a re-analysis of the deposited data

How the results depend on the processing

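The count of lower genes among the 44 was 18 to 28 under the other scalings, tools, filters and offsets, except that a filter of 5 FPKM, which left 26 of the 44 tested, gave 15. It was 19 to 23 with single libraries left out. The count of higher genes was 2 under limma with each pseudocount (1, 0.5 and 0.1). It was 0 with upper-quartile scaling, library totals only, filterByExpr or a filter of 5 FPKM, and 0 to 1 with libraries left out. The median log2 fold change of the 44, -0.26 as reported, was -0.17, -0.18 and -0.20 under limma (pseudocounts 1, 0.5 and 0.1), -0.31 with upper-quartile scaling, -0.29 with library totals, -0.24 with no filter, -0.21 with a filter of 5 FPKM, -0.24 with the length and GC offset and -0.29 to -0.21 with libraries left out. Of 561 values of the 26 lower genes under the alternatives, 487 kept direction and call, 74 kept direction only and 0 turned round. Over all genes, limma with a pseudocount of 0.1 called 1500 lower, against 2253. Among other ribosome biogenesis genes 35 were lower and 2 higher. The lower count was 17, 18 and 17 under limma (pseudocounts 1, 0.5 and 0.1), 9 with no filter, 21 with a filter of 5 FPKM and 16 to 26 with libraries left out. The higher count was 4 under limma with each pseudocount and 4 with the coding length offset, 1 with no filter or with a filter of 5 FPKM, 6 with the length and GC offset and 1 to 3 with libraries left out. Directions turned round for Ncl (-0.16 with the length and GC offset, -0.04 with coding length), Mga (-0.01 with the length and GC offset), Neat1 (-0.24 and, with coding length, -0.21), Snu13 (0.09 with coding length) and Lyz2 (0.02 with coding length). Pop7, which had not passed at -0.30, stood at 0.01 and 0.02 with the 2 offsets. The cause was not tested. The ribosomal RNA share of counts was 0.632 percentage points higher in KO, and 0.377 to 0.849 points with libraries left out. The replicate numbers did not pair the libraries, since deviations of same-numbered libraries correlated at 0.023, 0.187 and -0.038. With the replicate number as a block edgeR called 2407 genes higher and 2294 lower, among the 44 genes 0 higher and 25 lower. With the length and GC offset and the block together the median of the 44 was -0.24, other ribosome biogenesis genes higher numbered 5, and Ncl, Mga and Neat1 stood at -0.16, -0.01 and -0.24. Totals without Rn45s were not run, since the table lists no such row.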
